A study of Mus musculus with 6 samples.

Results

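The genes described here encode the machinery that copies DNA and supplies its nucleotides. A list of 43 genes was chosen by function, and all 43 were found by gene symbol among the 22311 genes named on the arrays. They fell into 7 steps: 11 licensing genes, 6 initiation genes, 7 polymerase genes, 9 genes of the sliding clamp, single-strand binding and ligation, 4 nucleotide synthesis genes, 4 regulators of S-phase entry and 2 chromatin assembly genes. RNA of 6 cultured samples of mesenchymal stromal cells (MSCs) from mouse bone marrow had been measured on Affymetrix arrays, 1 array per sample. The tetraploid samples were a primary culture (I), a cell line (II) and a clone made tetraploid artificially (III), and the diploid samples were a clone (I) and primary cultures (II and III). Ploidy rested on DNA content, read by flow cytometry after propidium iodide staining, and on spectral karyotyping. All cells came from mouse bone marrow and were grown in the same stem cell medium, per the labels, which name no strain, age or sex. They call the samples biological replicates and do not tie them to animals, so each p-value sets a difference against the scatter of these 6 cultures only. A clone descends from 1 cell, and the labels do not name the diploid parent of the artificial tetraploid clone.

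Replication starts at origins that are licensed in G1 phase, when the origin recognition complex, Cdc6 and Cdt1 load the ring-shaped MCM helicase onto DNA. At the onset of S phase, Cdc45 and the GINS complex join MCM to form the active helicase, and DNA polymerases alpha, delta and epsilon copy the strands with the help of the PCNA clamp. Many of these genes are transcribed under the control of E2F factors, which are released from the retinoblastoma protein family when cells commit to S phase, so the genes are widely read as a record of how many cells of a culture are replicating.

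Values are log2 expression after RMA, so a difference of 1 is a factor of 2. The array medians lay between 4.54 and 4.78, and the spread of values was narrower on the diploid III array, with an interquartile range of 2.75 against 3.16 to 3.24 on the other 5 arrays. Some arrays also stood apart in markers of other cells. Diploid III held the highest value for 38.5% of all genes, for 7 of 10 endothelial, 5 of 10 myeloid, 6 of 8 lymphocyte and 5 of 8 erythroid and megakaryocyte markers. The mean of the endothelial list in diploid III was 5.07 against 3.72 to 3.80 in the tetraploid samples and 3.68 and 3.77 in the other diploid samples. The endothelial cadherin gene Cdh5 had 11.03 in diploid III and 3.70 to 3.79 elsewhere. Flt1 had 7.32 in diploid III, but the rest of the endothelial list stayed dim there, from 3.55 (Robo4) to 4.81 (Esam), with 4.18 for Pecam1 and 3.63 for Kdr. The myeloid list had means of 3.98, 4.60 and 3.99 in tetraploid I to III, against 3.89, 3.97 and 4.38 in diploid I to III. Its members went different ways, with Cd68 and Lyz2 highest in tetraploid II (7.97 and 7.0), Cd14 highest in diploid III (7.46, against 4.79 in tetraploid II), and the pan-leukocyte gene Ptprc between 3.72 and 4.25 on all arrays. The 16 stromal markers had means between 7.98 and 8.85 on the tetraploid arrays, against 8.42 to 8.75 on the diploid arrays. Among them Col1a1 was bright in every culture (11.24 to 13.01), Lepr lay near the bottom of the scale in every culture (3.42 to 4.07), and Thy1 and Eng had 3.96 and 3.80 in tetraploid II. The low value of Eng was confined to that culture, with 8.80 to 10.78 on the other arrays, but low values of other markers were not. Thy1 had 4.35 in diploid III, and Nt5e had 3.90, 4.14 and 3.95 in tetraploid I, tetraploid II and diploid III, against 6.21 to 7.76 on the other arrays. The part of these markers in the results below was not tested.

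Of the 43 genes, 36 had a mean that was lower in tetraploid than in diploid samples and 7 a higher one, where 60.9% of all genes had a lower mean. The median log2 difference, tetraploid minus diploid, was -0.25, against -0.05 over all genes. The shares of all genes given here and below include many dim probe sets. Without those whose mean lay below the median of all probe sets, 34 of 41 members had a lower mean, against 47.2% of all genes kept. The median was then -0.26 over the members and 0.03 over all genes kept. No member passed the adjusted threshold in either direction, as was the case for 0% of all genes (limma, Benjamini-Hochberg, smallest adjusted p of any gene = 0.876). At an unadjusted p under 0.05, 7 members were lower and 0 were higher (limma), where 2.14% of all genes were lower and 2.95% were higher at that p. These 7 were Pole, Pold1, Orc1, Rfc5, Rrm1, Mcm3 and Chaf1b. The 3 tetraploid values lay wholly below the 3 diploid values for 8 members, where 7.2% of all genes did so, and wholly above them for 0, where 4.82% did so. In RNA from whole cultures, a smaller share of cells in S phase and less RNA per cell cannot be told apart.

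**Figure D1:**
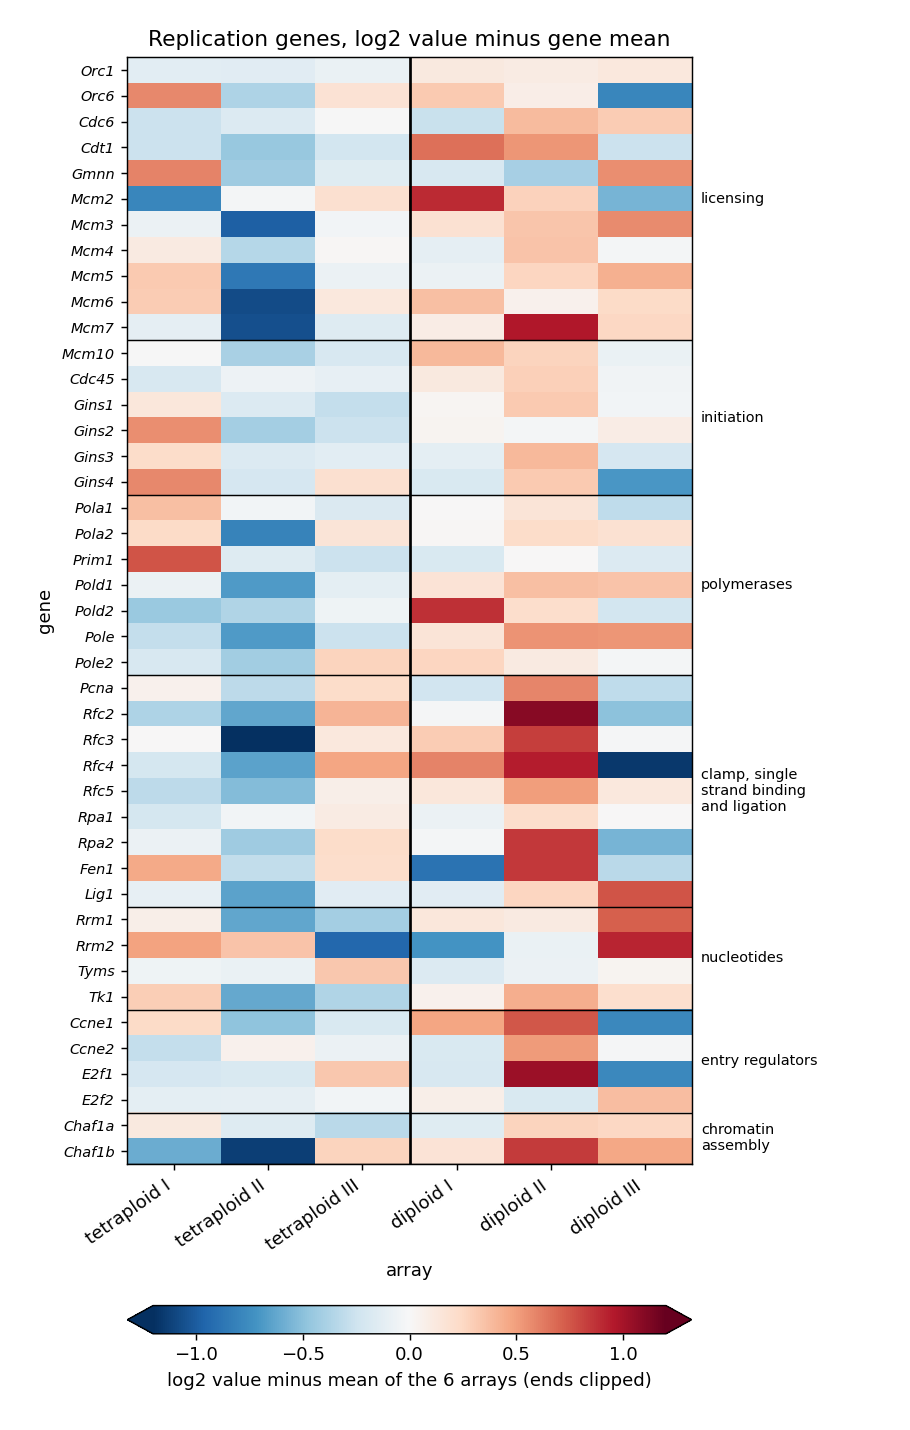
Log2 value of each of the 43 genes on each array, minus that gene's mean over the 6 arrays, with tetraploid arrays left of the black line and diploid arrays right of it. Colours run from blue (below the gene's mean) to red (above it), and the horizontal lines part the steps. Tetraploid II held the lowest value of 22 genes and diploid II the highest of 22.

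The range over the cultures of the same ploidy was wider than the gap between the means of the ploidies. The mean over the 43 genes was 6.46 ± 0.24 in tetraploid and 6.74 ± 0.20 in diploid samples (SD, n = 3 each), a gap wider than either SD. It ran from 6.18 to 6.63 over the tetraploid samples and from 6.60 to 6.97 over the diploid samples. Tetraploid II, the cell line, had the lowest value of the 6 arrays for 22 of the 43 genes (51.2%, against 21.5% of all genes), and diploid II, a primary culture, had the highest value for 22 (51.2%, against 9.38% of all genes). Averaged over the genes, each set to its own mean, the deviations of tetraploid I, II and III were 0.03, -0.42 and -0.03, against 0.06, 0.37 and -0.01 for diploid I, II and III. The low mean of the tetraploid group thus came with 1 low culture, and the high mean of the diploid group with 1 high culture. Without tetraploid II, 29 members had a lower mean, the median was -0.18, and 3 members were lower at an unadjusted p under 0.05 (limma). Of all genes, 60.6% then had a lower mean and 1.1% were lower at that p. Without diploid II, 30 had a lower mean, 1 of them at that p, and the median was -0.17. Of all genes, 60.8% then had a lower mean and 2.05% were lower at that p. Without both tetraploid II and diploid III, the arrays that stood apart in markers or spread, 31 had a lower mean (53.3% of all genes), the median was -0.21, and 7 had an unadjusted p under 0.05 and a lower mean (3.23% of all genes). Of those 7, only Pole, Pold1 and Mcm3 were among the 7 of all 6 arrays.

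**Figure D2:**
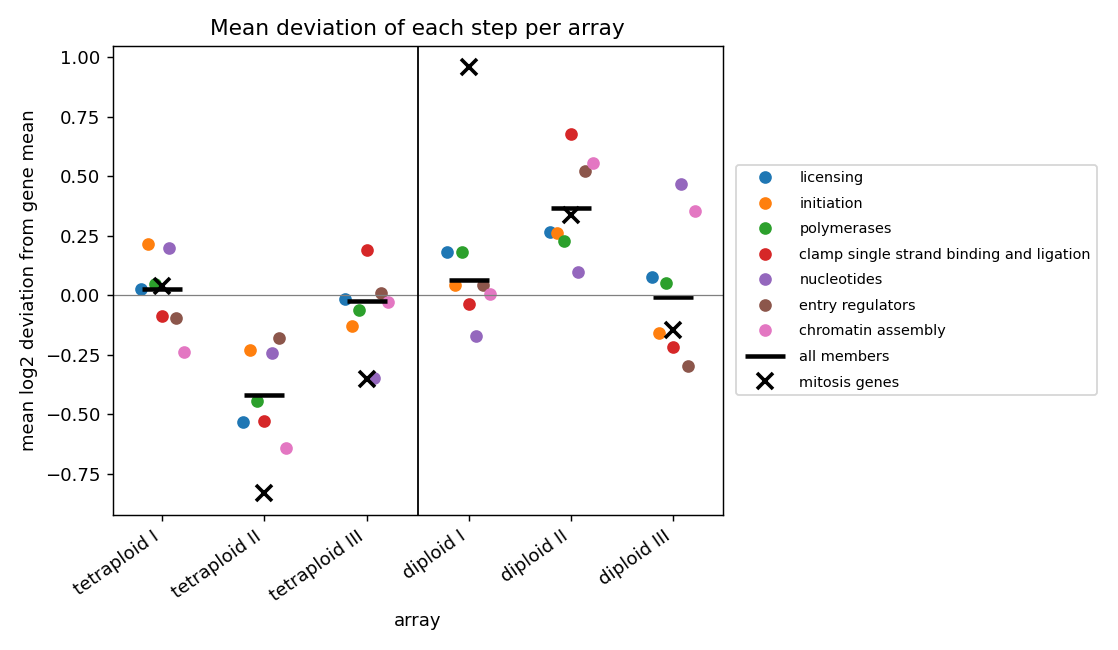
Mean log2 deviation from the gene mean for each step (dots, set side by side), for all members (black bars) and for the mitosis genes (crosses) on each array, with tetraploid arrays left of the line and diploid arrays right of it. The bar of all members lies at -0.42 in tetraploid II and at 0.37 in diploid II, and the cross of the mitosis genes at 0.96 in diploid I.

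The promoters of these genes carried the letters of E2F sites more often than promoters in general, as a description with no test. The RefSeq table used here (GRCm38.p6) gives windows of 250 bases before to 50 bases after a gene's start, and 35 of the 43 genes matched it, with 41 windows. Those not matched were Ccne2, Gins1, Gins2, Gins4, Gmnn, Mcm4, Pole and Rfc2. An E2F word (TTTCCCGC, TTTCGCGC, TTTGCCGC or TTTGGCGC, on either strand) stood in the windows of 14 of the 35 genes, or 40.0%, and of 2.60% of all 27025 genes in the table. Among other replication and S-phase genes, 19 of 70 with a window had such a word (27.1%), and of 25 mitosis genes 1 did (4.00%). The CHR words TTTGAA and TTCGAA, known from promoters of genes that peak in G2 and M phase, stood in 8 of the 35 (22.9%, against 21.7% of all genes) and in 19 of the 25 mitosis genes (76%). CCAAT, the NF-Y word, stood in 21 of the 35 (60.0%, against 41.1% of all genes). The 14 genes with an E2F word had a median log2 difference of -0.42 and 13 lower means, and the 21 with a window and no such word had a median of -0.25 and 17 lower means. A match describes letters in this window and is not evidence of binding.

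The stretches below are parts of the windows and show, in capitals, the E2F and CCAAT words that lie in them, for 4 members whose groups did not overlap (Orc1, Mcm7, Mcm3 and Pold1), for Mcm6, whose 3 E2F words include a pair that overlap on opposite strands, and for Rrm1, which has CCAAT words and none of the E2F words. Other words of these genes lie outside the stretches, among them an E2F word 17 bases after a start of Mcm7 and CCAAT words 117, 72 and 32 bases before that of Mcm3. All are written 5′ to 3′ on the gene's strand in GRCm38.p6. The Orc1 stretch (chr4:108579374-108579453, plus strand) ends at the base before the start, and its E2F word begins 27 bases before it.
Orc1: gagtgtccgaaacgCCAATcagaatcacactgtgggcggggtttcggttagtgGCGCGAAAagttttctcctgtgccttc
The Mcm7 stretch (chr5:138171884-138172053, minus strand) holds an E2F word that begins 165 bases before the start, and CCAAT words on the opposite strand at 72 and 26 bases.
Mcm7: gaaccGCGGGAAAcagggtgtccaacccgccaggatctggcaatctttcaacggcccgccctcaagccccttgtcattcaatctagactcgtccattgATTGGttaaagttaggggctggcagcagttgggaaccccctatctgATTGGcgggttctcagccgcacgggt
The Mcm6 stretch (chr1:128359706-128359825, minus strand) holds E2F words that begin 110, 106 and 47 bases before the start.
Mcm6: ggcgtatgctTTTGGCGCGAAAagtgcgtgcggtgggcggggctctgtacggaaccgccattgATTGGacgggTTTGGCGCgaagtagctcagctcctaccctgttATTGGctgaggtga
The Rrm1 stretch (chr7:102441595-102441694, plus strand) holds CCAAT words that begin 91 and 45 bases before the start.
Rrm1: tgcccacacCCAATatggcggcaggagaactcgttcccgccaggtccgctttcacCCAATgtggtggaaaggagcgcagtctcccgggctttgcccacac
The E2F words of Mcm3 begin at bases 20 and 39 after the start (chr1:20820266-20820295, minus strand).
Mcm3: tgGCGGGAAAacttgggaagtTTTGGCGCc
That of Pold1 begins at base 40 after the start (chr7:44548766-44548795, minus strand).
Pold1: cacggcggcgtatcttgtgGCGGGAAAagc

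Licensing genes had lower means in the tetraploid samples for 9 of 11 members (81.8%, against 60.9% of all genes), with a median log2 difference of -0.41. Of the 11, 2 were lower at an unadjusted p under 0.05 (limma, 18.2%, against 2.14% of all genes). The median was -0.21 without tetraploid II. All 6 subunits of the MCM2 to MCM7 helicase ring had lower means. Mcm3 had 7.30, 6.40 and 7.34 in tetraploid I to III, against 7.56, 7.70 and 7.95 in diploid I to III. Its groups did not overlap, and tetraploid II lay furthest from the rest. The means were 7.01 ± 0.53 in tetraploid and 7.74 ± 0.20 in diploid samples (SD, n = 3 each), a log2 difference of -0.72 (SE 0.29, limma unadjusted p = 0.0485, adjusted p = 0.876). Mcm7 had the lowest difference of the step, with 8.12, 7.17 and 8.07 in the tetraploid samples, against 8.32, 9.19 and 8.47 in the diploid samples. These groups did not overlap either, and the difference was -0.87 (SE 0.35, limma unadjusted p = 0.0520), just outside the unadjusted threshold.

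The other ring subunits overlapped between the groups. Mcm6 had 8.83, 7.45 and 8.65 in the tetraploid samples, against 8.88, 8.58 and 8.76 in the diploid samples, so that tetraploid II was the 1 low sample. Mcm5 had the same form, with 6.94, 5.76 and 6.55 in the tetraploid samples, against 6.55, 6.87 and 7.04 in the diploid samples. Mcm2 had another order, with 7.76, 8.52 and 8.74 in the tetraploid samples, against 9.44, 8.82 and 7.98 in the diploid samples. Here the lowest culture was tetraploid I, and diploid III lay among the tetraploid values. The differences were -0.43 (SE 0.38) for Mcm6, -0.41 (SE 0.33) for Mcm5, -0.41 (SE 0.44) for Mcm2 and -0.15 (SE 0.18) for Mcm4.

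Among the factors that load the ring, Cdt1, which brings MCM to the origin, had 6.52, 6.31 and 6.56 in the tetraploid samples, against 7.43, 7.30 and 6.51 in the diploid samples. Diploid III lay with the tetraploid samples, and the difference was -0.62 (SE 0.26, limma unadjusted p = 0.0602). Orc1, the largest subunit of the origin recognition complex, had 3.79, 3.78 and 3.84 in the tetraploid samples, against 4.03, 4.01 and 4.04 in the diploid samples. Its groups did not overlap and the difference was -0.22 (SE 0.08, limma unadjusted p = 0.0299, adjusted p = 0.876). All 6 values lay below the array medians, where a value near the lower quartile (3.82 to 4.02) says little about the amount of RNA, so the size of this difference is uncertain. Orc6, another subunit of that complex, had the highest difference of the step, 0.26 (SE 0.37), with 8.52, 7.57 and 8.11 in the tetraploid samples, against 8.25, 8.02 and 7.16 in the diploid samples. The groups overlapped widely and the sign turned to -0.07 without diploid III. Cdc6, the loading factor, differed by -0.28 (SE 0.20), and Gmnn, which encodes geminin, the inhibitor of Cdt1, by 0.02 (SE 0.36). A dimmer probe set of Gmnn had the other sign, with a difference of -0.13 (SE 0.10).

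Initiation genes had a median difference of -0.14, with 5 of 6 lower means (83.3%, against 60.9% of all genes) and 0 members at an unadjusted p under 0.05 in either direction (limma). The median was -0.08 without tetraploid II, -0.06 without tetraploid III, -0.27 without tetraploid I and -0.22 without diploid III. Mcm10, which is needed to start unwinding, had 5.004, 4.62 and 4.82 in the tetraploid samples, against 5.39, 5.27 and 4.92 in the diploid samples. Diploid III lay within the tetraploid range, and the difference was -0.38 (SE 0.17, limma unadjusted p = 0.0677). Cdc45, the helicase cofactor, had 5.93, 6.06 and 6.02 in the tetraploid samples, against 6.24, 6.41 and 6.09 in the diploid samples. The groups did not overlap, but tetraploid II and diploid III were close, and the difference was -0.24 (SE 0.11, limma unadjusted p = 0.0814).

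Of the 4 subunits of the GINS complex, 3 had lower means, with a median difference of -0.06 over the 4. Gins4 had the highest difference of all 43 genes, 0.37 (SE 0.32), with 8.20, 7.42 and 7.81 in the tetraploid samples, against 7.44, 7.94 and 6.93 in the diploid samples. The groups overlapped, with diploid III lowest and tetraploid I highest. Gins1, Gins2 and Gins3 differed by -0.21 (SE 0.16), -0.07 (SE 0.27) and -0.05 (SE 0.20).

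**Figure D3:**
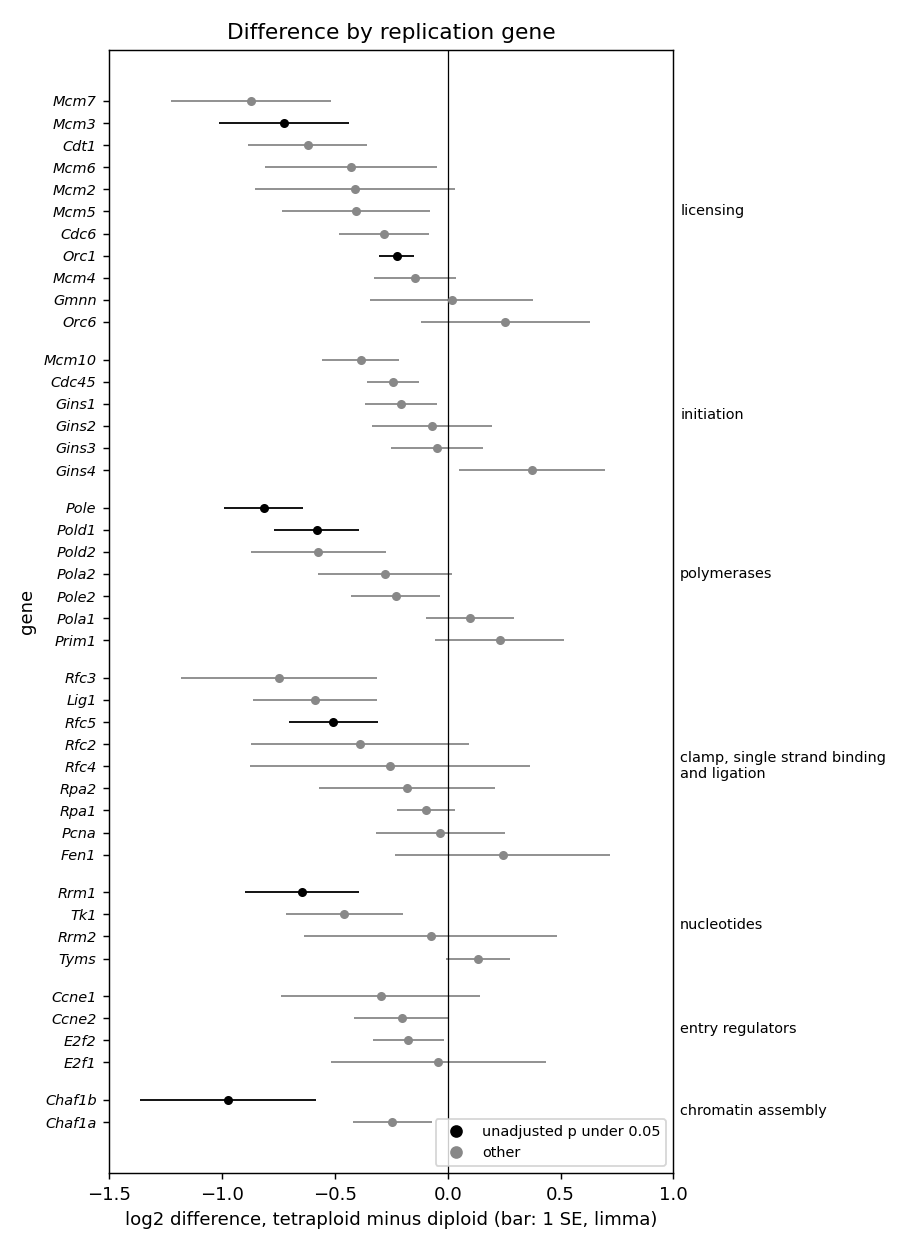
Log2 difference, tetraploid minus diploid, of each gene with 1 SE from limma, grouped by step and ordered by size within each. Black points have an unadjusted p under 0.05. All 7 of these lie left of 0, and the highest difference is that of Gins4 at 0.37.

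Polymerase genes had a median difference of -0.28, with 5 of 7 lower means (71.4%, against 60.9% of all genes). Of the 7, 2 were lower at an unadjusted p under 0.05 (limma, 28.6%, against 2.14% of all genes). The median was -0.08 without tetraploid II, -0.46 without tetraploid I and -0.42 without tetraploid III. Pole, the catalytic subunit of the leading-strand polymerase epsilon, had 5.40, 5.003 and 5.42 in the tetraploid samples, against 5.83, 6.22 and 6.21 in the diploid samples. The groups did not overlap, with a gap between tetraploid III and diploid I. The means were 5.27 ± 0.23 in tetraploid and 6.09 ± 0.22 in diploid samples (SD, n = 3 each), a log2 difference of -0.82 (SE 0.17, limma unadjusted p = 0.00420, adjusted p = 0.876), which is a ratio of 0.568. With 3 samples against 3, the two-sided exact permutation p was 0.1, which is the lowest that this design allows. Any gene whose groups do not overlap has this p, so it adds nothing to the lack of overlap. Pole kept an unadjusted p under 0.05 in all 19 alternative settings tried (limma, 0.00350 to 0.0259), with differences of -0.94 to -0.62. The lowest adjusted p over those settings was 0.441.

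Pold1, the catalytic subunit of polymerase delta, had 5.35, 4.75 and 5.30 in the tetraploid samples, against 5.59, 5.78 and 5.77 in the diploid samples. Its groups did not overlap, with means of 5.13 ± 0.34 in tetraploid and 5.71 ± 0.11 in diploid samples (SD, n = 3 each). The difference was -0.58 (SE 0.19, limma unadjusted p = 0.0240, adjusted p = 0.876). Pold2, a second subunit of the same enzyme, differed by -0.57 (SE 0.30), where the tetraploid samples spanned 7.11 to 7.51 and diploid III had 7.34. Pole2, an accessory subunit of polymerase epsilon, differed by -0.23 (SE 0.20).

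Genes of polymerase alpha and its primase, which lay down the primers, had differences of both signs. Prim1, the catalytic primase subunit, had the highest difference of the step, 0.23 (SE 0.29), with 7.64, 6.74 and 6.64 in the tetraploid samples, against 6.70, 6.89 and 6.73 in the diploid samples. Tetraploid I was the 1 high sample, and the sign turned to -0.09 without it. Pola1, the catalytic subunit, differed by 0.10 (SE 0.19) and Pola2 by -0.28 (SE 0.30). In the authors' deposited table, which gives folds of diploid over tetraploid, 3 members had a p under 0.05, where 2.3% of all genes were lower in the tetraploid samples at that p. In the authors' deposited table these were Pole with a fold of 1.76, Pold1 with 1.49 and Orc1 with 1.17.

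**Figure D4:**
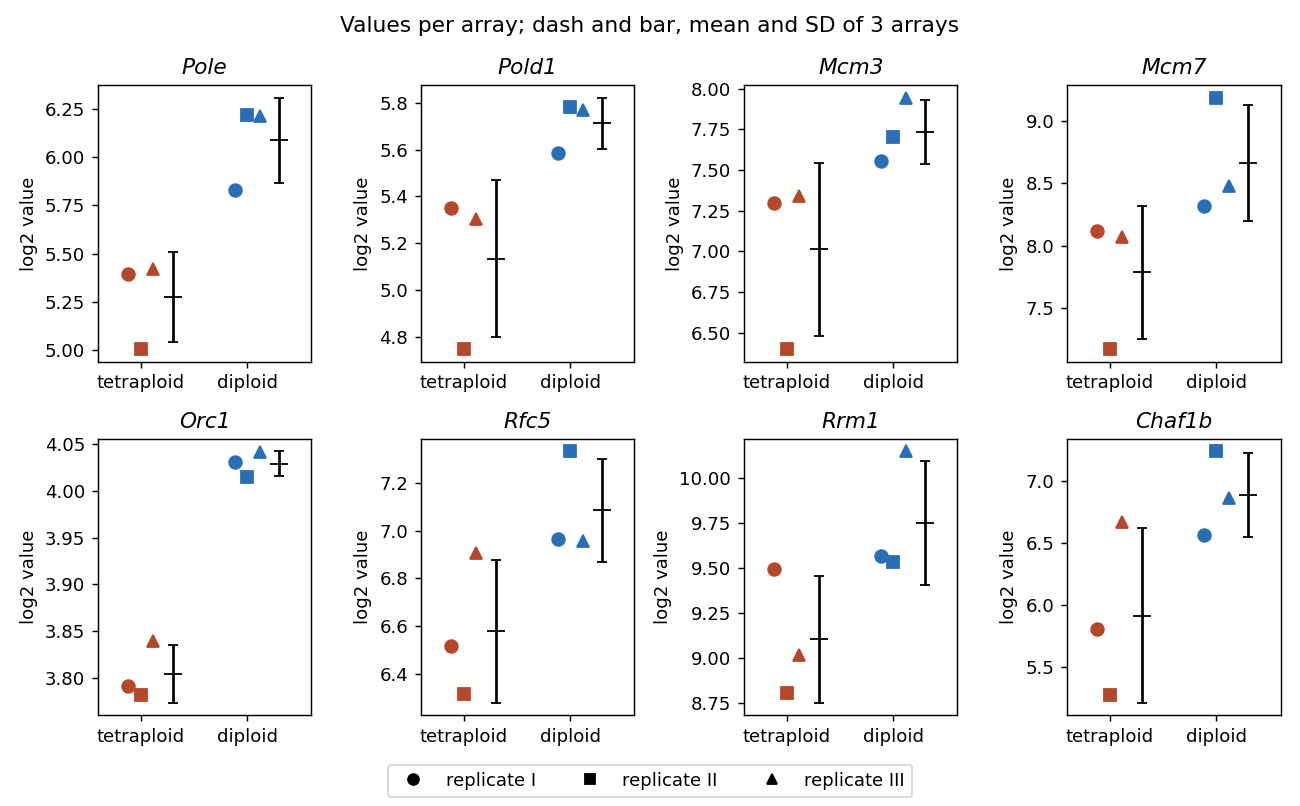
Log2 value per array of the 7 members with an unadjusted p under 0.05 and of Mcm7, whose p was 0.0520, with tetraploid samples in red on the left and diploid samples in blue on the right of each panel. The dash and bar give the mean and SD of 3 arrays, and each panel has its own scale, which does not start at 0. Groups overlap for Chaf1b, where tetraploid III (6.66) lies above diploid I (6.56), and do not overlap for the other 7 genes.

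Genes of the clamp, single-strand binding and ligation had a median difference of -0.26, with 8 of 9 lower means (88.9%, against 60.9% of all genes). Of the 9, 1 was lower at an unadjusted p under 0.05 (limma, 11.1%, against 2.14% of all genes). Diploid II held the highest value for 8 of the 9, and the median was 0.06 without it. It was -0.10 without tetraploid II, -0.56 without tetraploid III and -0.51 without diploid III. Rfc5, a small subunit of the clamp loader RFC, had 6.52, 6.31 and 6.90 in the tetraploid samples, against 6.97, 7.33 and 6.95 in the diploid samples. Its groups did not overlap, by a narrow margin between tetraploid III and diploid III. The difference was -0.51 (SE 0.20, limma unadjusted p = 0.0445, adjusted p = 0.876).

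Rfc3 had the lowest difference of the step, -0.75 (SE 0.43, limma unadjusted p = 0.139), with 7.17, 5.92 and 7.29 in the tetraploid samples, against 7.47, 7.995 and 7.15 in the diploid samples. Its low value in tetraploid II and high value in diploid II set most of that difference. Rfc2 and Rfc4 had the same high culture and differed by -0.39 (SE 0.48) and -0.26 (SE 0.62), with a range over the 6 arrays of 2.10 for Rfc4. Lig1, the ligase that joins Okazaki fragments, had 6.53, 5.98 and 6.49 in the tetraploid samples, against 6.50, 6.89 and 7.39 in the diploid samples. Diploid I lay within the tetraploid range, and the difference was -0.59 (SE 0.28, limma unadjusted p = 0.0807).

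Pcna, the sliding clamp that holds polymerases on DNA, barely differed. It had 9.65, 9.29 and 9.82 in the tetraploid samples, against 9.37, 10.18 and 9.29 in the diploid samples, a difference of -0.03 (SE 0.29). Another probe set of that symbol differed from these values by at most 0.01 on any array, so the pair cannot be counted as separate measurements and may share sequence. Fen1, the nuclease that trims Okazaki fragments, had the highest difference of the step, 0.24 (SE 0.48), with 6.15, 5.40 and 5.90 in the tetraploid samples, against 4.80, 6.54 and 5.37 in the diploid samples. The diploid range covered the tetraploid range, and the sign turned to -0.14 without diploid I. Its other, dimmer probe set differed by -0.05 (SE 0.10). The single-strand binding genes Rpa1 and Rpa2 differed by -0.10 (SE 0.13) and -0.18 (SE 0.39).

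Nucleotide synthesis genes had lower means in 3 of 4 cases (75%, against 60.9% of all genes), with a median difference of -0.27. Of the 4, 1 was lower at an unadjusted p under 0.05 (limma, 25%, against 2.14% of all genes). The median was -0.53 without tetraploid I, -0.50 without diploid I and -0.13 without diploid III. Rrm1, the large subunit of ribonucleotide reductase, had 9.49, 8.80 and 9.02 in the tetraploid samples, against 9.57, 9.53 and 10.15 in the diploid samples. The groups did not overlap, by a margin of less than 0.10 between tetraploid I and diploid II, and the difference was -0.64 (SE 0.25, limma unadjusted p = 0.0470, adjusted p = 0.876). Rrm2, the subunit of the same enzyme that is made in S phase, had 8.94, 8.80 and 7.51 in the tetraploid samples, against 7.74, 8.38 and 9.37 in the diploid samples. Low and high values occurred in both groups, and the difference was -0.08 (SE 0.56).

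Tk1, the thymidine kinase of the salvage pathway, had 6.42, 5.52 and 5.77 in the tetraploid samples, against 6.18, 6.57 and 6.34 in the diploid samples. Tetraploid I lay within the diploid range, and the difference was -0.46 (SE 0.26, limma unadjusted p = 0.131). A dimmer probe set of Tk1 differed by -0.31 (SE 0.16). Tyms, the thymidylate synthase gene, had 7.21, 7.18 and 7.59 in the tetraploid samples, against 7.10, 7.19 and 7.29 in the diploid samples. This was the highest difference of the step, 0.13 (SE 0.14), and the values of Tyms spanned 0.49 over the 6 arrays, against 1.05 to 1.86 for the other 3 genes of the step.

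Regulators of S-phase entry had lower means in all 4 cases, where 60.9% of all genes did so. Of the 4, 0 had an unadjusted p under 0.05 in either direction (limma), and their median difference was -0.19. That median was 0.00036 without diploid II and -0.35 without diploid III. E2f1, the transcription factor that switches on many of the other genes, had 6.28, 6.30 and 6.80 in the tetraploid samples, against 6.29, 7.50 and 5.71 in the diploid samples. Diploid II and III held the highest and the lowest value, and the difference was -0.04 (SE 0.48), turning to 0.46 without diploid II. Ccne1, which encodes cyclin E1, the partner of Cdk2 at the start of S phase, had the lowest difference of the step, -0.30 (SE 0.44), with 6.86, 6.15 and 6.44 in the tetraploid samples, against 7.11, 7.37 and 5.85 in the diploid samples. It showed the same split of diploid II and III, and the difference was 0.0015 without diploid II. Ccne2, for cyclin E2, had 4.51, 4.85 and 4.73 in the tetraploid samples, against 4.61, 5.31 and 4.78 in the diploid samples, a difference of -0.20 (SE 0.21). E2f2 lay below the median of every array, with 3.97, 3.98 and 4.06 in the tetraploid samples, against 4.16, 3.91 and 4.46 in the diploid samples, a difference of -0.17 (SE 0.16).

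Chromatin assembly factor 1, which deposits histones on newly copied DNA, was represented by 2 subunits. Chaf1b had the largest negative difference of all 43 genes, with 5.80, 5.27 and 6.66 in the tetraploid samples, against 6.56, 7.24 and 6.86 in the diploid samples. Tetraploid III lay above diploid I, so the groups overlapped. The means were 5.91 ± 0.70 in tetraploid and 6.89 ± 0.34 in diploid samples (SD, n = 3 each), a difference of -0.97 (SE 0.39, limma unadjusted p = 0.0498, adjusted p = 0.876). Chaf1a had 5.49, 5.22 and 5.05 in the tetraploid samples, against 5.23, 5.65 and 5.63 in the diploid samples, a difference of -0.25 (SE 0.18).

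How far the members moved together can be described by their correlations over the 6 arrays, which share the same cultures and so are not independent. The median Pearson correlation over the 903 pairs of members was 0.38. Pairs of other genes were not correlated, so these values cannot be compared with those of genes in general. It was 0.64 among the clamp, binding and ligation genes, 0.43 among the licensing genes and 0.30 among the polymerase genes, but 0.01 among the nucleotide genes and -0.005 among the entry regulators. Mcm7 and Rfc3 followed the mean of the other members most closely (0.97 and 0.98), and Rrm2, E2f2, Tyms and Gmnn did not follow it (-0.27, -0.10, -0.08 and 0.02).

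Other genes of the pathway were set beside the members from a list of 85 measured genes that holds further firing factors, fork proteins, nucleotide enzymes, cell cycle regulators and chromatin factors. Of these, 57 had lower means (67.1%, against 60.9% of all genes) and 28 higher means, with a median difference of -0.19, against -0.05 over all genes. At an unadjusted p under 0.05 there were 6 lower genes (7.06%, against 2.14% of all genes) and 1 higher gene (1.18%, against 2.95%), and 0 in either direction after adjustment (limma). The smallest p-values among the lower genes were those of Ccna2, Ticrr and Gart. Ccna2, the gene of cyclin A2, had 6.90, 6.52 and 6.91 in the tetraploid samples, against 8.07, 7.41 and 7.49 in the diploid samples, a difference of -0.88 (SE 0.22). Its groups did not overlap. Ticrr, a factor that recruits Cdc45 to origins, differed by -0.49 (SE 0.13), with means of 4.42 in tetraploid and 4.91 in diploid samples. Gart, an enzyme of purine synthesis, differed by -0.83 (SE 0.24), with means of 8.17 in tetraploid and 9.001 in diploid samples. Among higher genes the smallest were those of Rbl2, which encodes p130, a retinoblastoma family repressor of E2F target genes in resting cells, Mcm9 and Pold4. Rbl2 had 8.42, 8.36 and 7.40 in the tetraploid samples, against 6.90, 7.59 and 7.08 in the diploid samples, a difference of 0.87 (SE 0.34). Tetraploid III lay within the diploid range. Mcm9 and Pold4 differed by 0.47 (SE 0.24) and 0.64 (SE 0.35).

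A list of 30 mitosis genes ranked the cultures as the replication genes did, except that diploid I and II changed places at the top. Its mean was 6.58, 5.71 and 6.19 in tetraploid I to III, against 7.50, 6.88 and 6.40 in diploid I to III. Diploid I held the highest value for 24 of these 30 genes and for 5 of the 43 replication genes, while tetraploid II held the lowest for 27 of the 30 and for 22 of the 43. The median difference of the mitosis genes was -0.75 with 29 lower means (96.7%, against 60.9% of all genes). Of the 30, 5 were lower at an unadjusted p under 0.05 (limma, 16.7%, against 16.3% of the replication genes and 2.14% of all genes). The list means of the replication genes were 6.63, 6.18 and 6.58 in the tetraploid samples, against 6.67, 6.97 and 6.60 in the diploid samples. No test was made between the 2 lists.

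Since origin was partly mixed with ploidy, the ploidy difference was also taken within each origin. For primary cultures this compares tetraploid I with the diploid cultures II and III. For lines and clones it compares tetraploid samples II and III with the diploid clone. In primary cultures the replication genes had a median difference of -0.21 and the mitosis genes one of -0.05. In lines and clones the medians were -0.26 for the replication genes and -1.59 for the mitosis genes. Lower means in both origins were found for 25 of the 43 genes (58.1%, against 36.1% of all genes), and higher means in both for 3, which were Gins4, Fen1 and Rrm2. The primary and the line difference were -0.82 and -0.62 for Pole, -0.71 and -0.69 for Mcm7, and -0.43 and -0.56 for Pold1. These genes had groups without overlap, which fixes the same sign in both. Pold2 had the largest difference in lines and clones, -1.08, and Chaf1b that in primary cultures, -1.25. The difference between origins had an unadjusted p under 0.05 for 3 members, where 2.86% of all genes did so in either direction, and an adjusted p under 0.05 for 0 members and 0% of all genes (limma). In this model only the diploid primary cultures and the tetraploid line and clone supply a spread, and the tetraploid primary culture and the diploid clone, each alone, are taken to have the same spread.

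**Figure D5:**
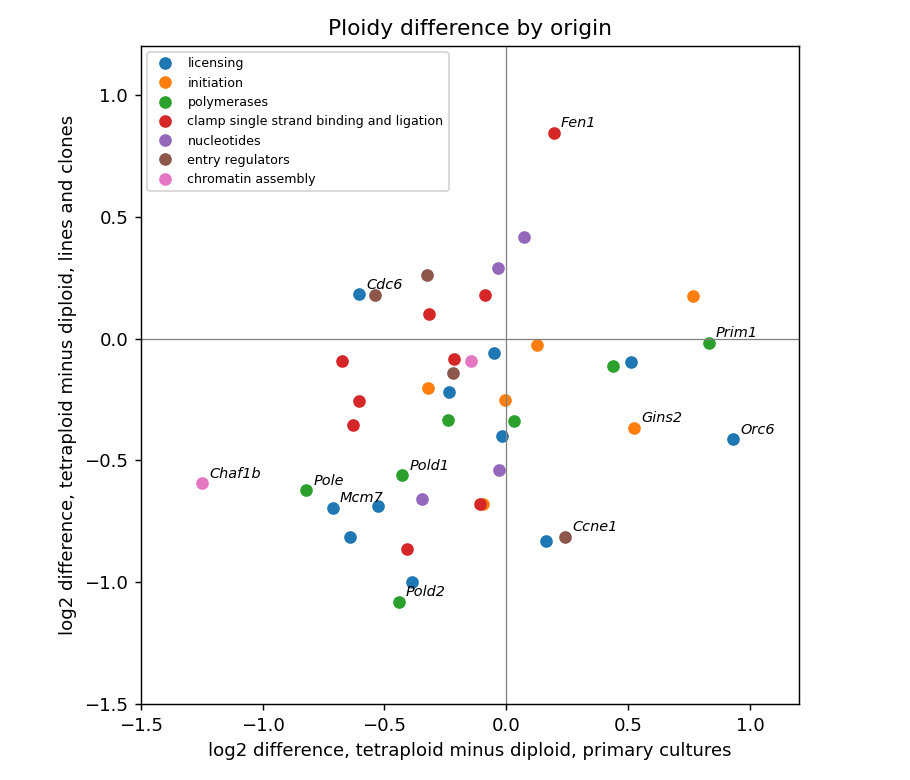
Log2 difference, tetraploid minus diploid, of each of the 43 genes in primary cultures (horizontal axis) and in lines and clones (vertical axis), coloured by step. Of the points, 25 lie at the lower left, where both differences are negative, and 3 at the upper right.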

How the data were processed

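Per the labels, total RNA was extracted with TRI reagent, biotin-labelled and measured on Affymetrix arrays. The authors' deposited values are log2 expression per probe set, made with RMA and Partek as far as the submitters' processing notes tell. The authors' deposited comparison table gives a p-value and a score, the signed fold of diploid over tetraploid, per probe set, per the file headers. Its 6 columns of per-sample values matched no label and were not used. A genome build is not given in the sources used here.

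Of 35399 probe sets, 25917 had a symbol, updated through RefSeq (GRCm38.p6). For each gene the probe set of highest mean over the arrays was taken. Differences, tetraploid minus diploid, were tested with limma 3.58.1 in R 4.3.3 (lmFit, eBayes) as two-sided tests without a filter on dim probe sets, adjusted by Benjamini-Hochberg across the 25917 named probe sets, and the script was tested on simulated data. Of the 43 members, 41 passed the alternative filter on dim probe sets. Printed in full were, per step, the 2 smallest p-values and the highest and lowest difference, every unadjusted p under 0.05, and any member higher without overlap. Members and lists were chosen with earlier results of these data known. Cultures with the same number did not deviate together (correlations -0.34 to -0.12). Figures used matplotlib 3.10.9. The number of arrays limits the precision.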

Additional observations from a re-analysis of the deposited data

Results flagged for a closer look

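In 3 members the ploidy difference differed between origins at an unadjusted p under 0.05 in limma, and in none after adjustment (adjusted p = 1 for each). Gins2, a GINS subunit, had a difference in lines and clones minus that in primary cultures of -0.89 (SE 0.27, limma unadjusted p = 0.0337), with 6.55 in tetraploid I against 5.97 and 6.08 in diploid II and III, and 5.59 and 5.74 in tetraploid II and III against 6.03 in diploid I. Prim1, the primase subunit, had -0.85 (SE 0.27, limma unadjusted p = 0.0399), with 7.64 in tetraploid I and 6.64 to 6.89 on the other 5 arrays. Cdc6, the loading factor, went the other way, with 0.79 (SE 0.27, limma unadjusted p = 0.0467), with 4.74 in tetraploid I against 5.38 and 5.31 in diploid II and III, and 4.84 and 4.999 in tetraploid II and III against 4.74 in diploid I. With an intensity trend in the variance model 0 members remained at that p.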

How the results depend on the processing

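No member passed the adjusted threshold under any of the 19 alternatives to the limma test, and 0 were higher at an unadjusted p under 0.05. The count of 7 members lower at that p became 9 with array weights (4.85% of all genes), 8 with quantile normalisation (3.03%) and 5 with robust eBayes (2.02%). Of the first 7 members, 4, 4 and 5 were among these. It became 3 with array median centring (2.57%), without dim probe sets (2.34%), with an intensity trend (2.26%) and with an ordinary linear model (2.3%), all from the 7. The count was 4 with origin as a covariate (2.45%), of which 2 were from the 7 (Pold1 and Pole), and 1 with the replicate block (Pole, 1.97%). It was 6 or 7 under the other ways of choosing probe sets, and ranged from 1 to 7 when 1 culture was left out. It was then 3 without tetraploid II (1.1% of all genes), 4 without diploid I (1.82%) and 1 without diploid II (2.05%), of which 3, 2 and 1 were from the 7. It was 6 without tetraploid I (1.42%), 6 without tetraploid III (2.94%) and 7 without diploid III (4.37%), of which 4, 5 and 2 were from the 7. The cause was not tested. The numbers of the cultures did not pair them, so the block was not used otherwise. The 8 members without overlap ranged from 8 to 15 when 1 culture was left out and became 15 without tetraploid II and diploid III together. The count was also 15 without tetraploid I (12.4% of all genes) and without diploid III alone (14.5%), since fewer samples make overlap rarer. When both tetraploid II and diploid III were left out, 19.5% of all genes were lower without overlap. The count was 8 without tetraploid II (10.6%), 11 without tetraploid III (15.3%), 12 without diploid I (12.6%) and 9 without diploid II (16.4%). Without diploid II, 1 member was higher without overlap, and 2 were without tetraploid II and diploid III together. The median over the members stayed between -0.34 and -0.17 when 1 culture was left out, and that of the polymerase genes between -0.46 and -0.080. Signs with 1 culture left out were followed gene by gene only for the 23 members printed in full by rule. They turned for Orc6 (-0.071 to 0.50), Prim1 (-0.088 to 0.41), Fen1 (-0.14 to 0.73), E2f1 (-0.44 to 0.46) and Ccne1 (-0.76 to 0.0015). Other members turned as well, as the count of lower means fell from 36 to 29 without tetraploid II. The 3 members with a difference between origins became 0 with an intensity trend. For Orc1 and E2f2, which lay below every array median, the low signal limits what their differences show.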
